A study of Mus musculus with 12 samples.

Results

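The mitosis, spindle and kinetochore genes described here are 48 named genes whose products drive a cell through division, and their levels were followed across 4 groups of BV2 cells. The members were taken by symbol from a given list, with no measured value in the rule, and all 48 were found among the 24058 entries used of the 2 deposited tables. The list itself was chosen with earlier results of these data known. BV2 is an immortalised mouse microglial line, made by transforming microglia with a retrovirus that carries raf and myc oncogenes, so it divides in culture, and all groups share that background. The libraries fall into 4 groups of 3: short-hairpin knockdown of Spi1 (3 libraries), its scrambled hairpin control (3), overexpression of mouse Spi1 from a cDNA (3) and its empty control (3). Spi1 encodes PU.1, the ETS transcription factor that directs macrophage and microglial identity, and the series asks how its level affects the inflammatory response of microglia. Both perturbations were transient, RNA came from cells sorted by flow cytometry, and all cells were grown in medium with 5% serum. Whether the 3 libraries of a group are separate cultures is not stated in the labels, so the spread behind each p-value may be technical.

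Entry into mitosis is set by cyclin B bound to Cdk1, with the Aurora and Polo-like kinases acting beside it. Kinetochores then join chromosomes to spindle microtubules, the spindle checkpoint holds the cell until all are attached, and the anaphase-promoting complex ends mitosis by marking cyclins and securin for destruction. Most of these genes are transcribed late in the cell cycle, held down by the DREAM complex in resting cells and driven by MuvB with B-MYB and FOXM1 in G2, through promoter elements named CHR (cell cycle genes homology region) and the CCAAT box, which NF-Y binds. Their summed RNA is therefore widely used as a marker of dividing cells. In bulk RNA a smaller share of dividing cells and less RNA per dividing cell cannot be told apart.

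The promoters of the members were shown first because these elements are what the genes are known to share, and the rule that chose the members did not use them. RefSeq windows (build GRCm38.p6, 250 bases before to 50 after the start site) were matched by symbol for 41 members, in 43 windows, since Prc1 and Ect2 have more than 1. Ccna2, Cdc25c, Aurkb, Kif20a, Incenp, Tpx2 and Smc4 had no window matched. The start site is that of RefSeq, which can differ from the gene start in GENCODE M21. The windows of Kif2c, Kif4, Kif14, Cdca8 and Pttg1 lie wholly inside the GENCODE gene, and that of Mad2l1 ends before it. Both strands were searched for CHR in its usual form TTTGAA. The palindromic form TTTAAA was accepted as well and counted once. The CCAAT box was searched by those letters, and the E2F-like CDE as GGCGG. Where a box on each strand overlaps, as in CCAATTGG of the Ube2c window, both were counted. A CHR was in 35 of 43 member windows, 81.4%, against 27.6% of all 32851 windows and 19.0% of the 10452 windows of genes that passed the filter on low values. At least 1 CCAAT box was in 32 member windows (74.4%), against 37.4% of all windows and 37.9% of those of filtered genes. At least 2 CCAAT boxes were in 20 member windows (46.5%, against 11.7% of all and 14.6% of filtered windows). Both elements together were in 29 member windows (67.4%), against 10.7% of all windows and 7.7% of filtered ones. The GGCGG motif was in 88.4% of member windows, 48.8% of all windows and 80.0% of filtered ones. The tandem of GGCGG, 4 bases and a CHR was in 2 member windows, those of Cenpf and Ndc80 (4.7%, against 0.1% of all and 0.2% of filtered windows). A match is a description of the letters and is neither a binding site nor a cause of a level.

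Printed below are windows of the 6 members with the smallest p in knockdown against scrambled controls that hold a CCAAT box or a CHR, and then that of Pttg1, 1 of the 2 members that did not pass that test, chosen after its values were seen. CCAAT boxes and CHR matches on either strand are in capitals (a box on the other strand reads ATTGG, and a CHR there reads TTCAAA).
Top2a (chr11:99024140-99024439, minus strand): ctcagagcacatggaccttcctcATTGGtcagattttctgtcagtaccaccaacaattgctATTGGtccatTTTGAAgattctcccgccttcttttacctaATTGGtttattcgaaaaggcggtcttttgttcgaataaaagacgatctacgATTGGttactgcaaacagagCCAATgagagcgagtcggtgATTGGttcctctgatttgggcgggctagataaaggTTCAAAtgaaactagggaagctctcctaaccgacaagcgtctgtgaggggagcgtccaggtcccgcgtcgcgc
Prc1 (chr7:80294201-80294500, plus strand): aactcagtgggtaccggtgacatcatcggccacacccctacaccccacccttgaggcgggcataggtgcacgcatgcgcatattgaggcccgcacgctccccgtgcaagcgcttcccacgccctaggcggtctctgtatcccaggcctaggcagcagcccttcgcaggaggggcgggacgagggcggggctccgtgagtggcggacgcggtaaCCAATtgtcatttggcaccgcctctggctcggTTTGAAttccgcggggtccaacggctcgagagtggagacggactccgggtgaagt
Ube2c (chr2:164769679-164769978, plus strand): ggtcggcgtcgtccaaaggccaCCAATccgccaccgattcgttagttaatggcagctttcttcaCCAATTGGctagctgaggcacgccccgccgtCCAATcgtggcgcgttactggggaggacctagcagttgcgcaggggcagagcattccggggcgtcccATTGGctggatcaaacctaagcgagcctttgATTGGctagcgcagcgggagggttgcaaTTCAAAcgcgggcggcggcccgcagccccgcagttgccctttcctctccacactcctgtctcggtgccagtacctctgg
Kif20b (chr19:34922108-34922407, plus strand): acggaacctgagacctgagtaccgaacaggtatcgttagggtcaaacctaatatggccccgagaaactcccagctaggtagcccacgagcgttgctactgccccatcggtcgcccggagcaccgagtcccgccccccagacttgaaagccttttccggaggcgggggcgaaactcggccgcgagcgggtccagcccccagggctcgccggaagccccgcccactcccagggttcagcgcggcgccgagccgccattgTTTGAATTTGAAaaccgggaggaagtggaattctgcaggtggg
Kif15 (chr9:122950831-122951130, plus strand): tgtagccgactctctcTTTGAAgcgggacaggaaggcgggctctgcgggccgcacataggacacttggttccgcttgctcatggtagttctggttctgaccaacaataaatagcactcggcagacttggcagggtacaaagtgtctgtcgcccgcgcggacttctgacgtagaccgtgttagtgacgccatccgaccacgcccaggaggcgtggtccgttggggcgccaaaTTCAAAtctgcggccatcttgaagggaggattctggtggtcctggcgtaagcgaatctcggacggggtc
Ccnb1 (chr13:100786437-100786736, minus strand): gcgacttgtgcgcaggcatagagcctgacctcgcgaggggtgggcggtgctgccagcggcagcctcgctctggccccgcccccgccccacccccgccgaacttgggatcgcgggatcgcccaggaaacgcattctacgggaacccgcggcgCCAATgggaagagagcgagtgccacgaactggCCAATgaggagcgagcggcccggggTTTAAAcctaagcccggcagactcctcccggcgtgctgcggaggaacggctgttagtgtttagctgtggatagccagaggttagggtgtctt
Pttg1 (chr11:43425932-43426231, minus strand): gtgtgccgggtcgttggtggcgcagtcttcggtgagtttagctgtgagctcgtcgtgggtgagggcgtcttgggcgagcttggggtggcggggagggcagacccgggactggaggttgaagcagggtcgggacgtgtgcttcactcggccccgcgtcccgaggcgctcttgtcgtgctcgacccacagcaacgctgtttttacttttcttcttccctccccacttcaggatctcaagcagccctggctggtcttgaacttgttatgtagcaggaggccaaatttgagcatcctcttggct
In these letters, the Top2a and Ube2c windows hold 6 CCAAT boxes each, Kif20b holds 2 CHR matches side by side and no CCAAT box, and Pttg1 holds neither element in this window. The Pttg1 window lies inside the gene as placed in GENCODE M21 (chr11:43420250-43426251). The bases before that gene start were not searched, so the lack of both elements holds for this window only. Over the 43 windows the 54 CHR matches had a median position of 18 bases before the start site, with 36 of them within 50 bases of it, and the 71 CCAAT boxes had a median position of 68 bases before it. The windows of Prc1 overlap each other, as do those of Ect2, so sites there were counted in each window.

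**Figure D1:**
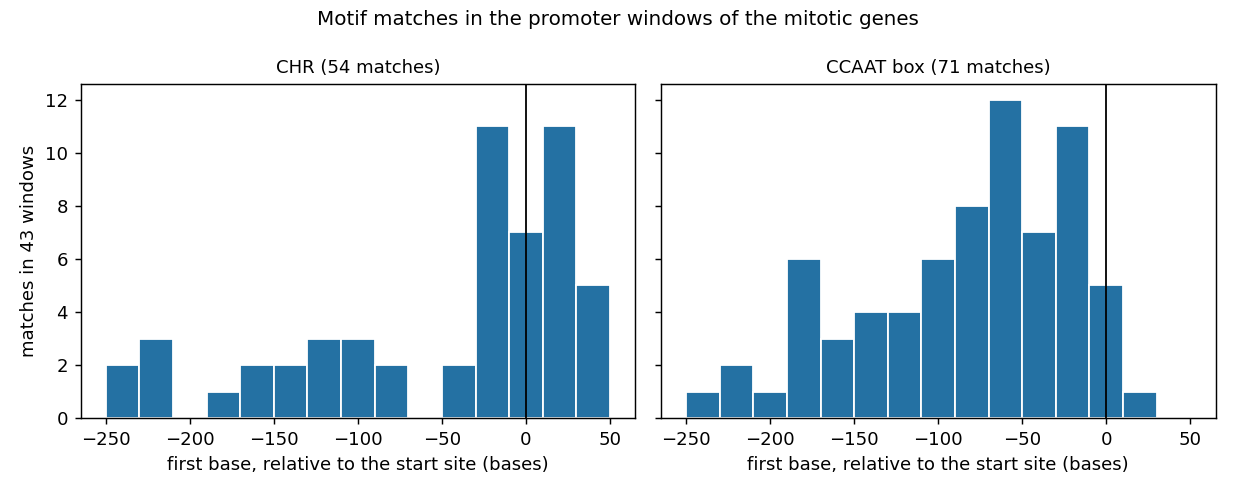
Positions of CHR (left) and CCAAT box (right) matches in 43 promoter windows of the mitotic genes. The x axis is the first base of the match relative to the start site in bases, and the y axis counts matches per bin. The 54 CHR matches crowd at the start site and the 71 CCAAT boxes lie further upstream. Sites in the overlapping windows of Prc1 and of Ect2 are counted in each window.

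Several properties of the whole series bear on these genes. Depth was 26.6 to 33.1 megareads in the knockdown libraries, 24.4 to 25.8 in the scrambled controls, 27.7 to 29.8 in the overexpression libraries and 22.3 to 27.8 in the empty controls, so knockdown depth did not overlap that of its controls. Its part in the differences was not tested. Levels are FPKM as deposited, reads per kilobase of gene per megaread of the library, so they are scaled to each library's total. Spi1 had 50.9, 42.4 and 52.3 FPKM in the knockdown libraries, against 159, 169 and 168 FPKM in the scrambled controls. It had 287, 224 and 206 FPKM in the overexpression libraries, against 158, 117 and 131 FPKM in the empty controls. Neither pair of groups overlapped, and the log2 difference of Spi1 was -1.75 ± 0.089 in knockdown (limma, adjusted p = 0.000697) and 0.81 ± 0.16 in overexpression, where it did not pass (adjusted p = 0.9999). The microglial and macrophage markers Csf1r, Itgam, Aif1, Ptprc, Cd68, Tyrobp, Fcer1g and Lyz2 all reached 1 FPKM, and their summed level was 2680 to 3500 FPKM in knockdown libraries, 4233 to 5066 in scrambled controls, 4263 to 5776 in overexpression libraries and 3847 to 5267 in empty controls. Lyz2 was the highest of these markers, reaching 3708 FPKM, so the sums weigh it most and do not show each marker. None of the fibroblast, neuron, astrocyte, oligodendrocyte, endothelial or T cell markers reached 1 FPKM, and Rbfox3, Snap25, Syt1, Aqp4, Cd3e and Cd3g were at 0 in every library. All 48 members passed the filter of a mean of 1 FPKM in every comparison, and their reads per library ran from 122 for Cdc25c to 13514 for Top2a.

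Knockdown libraries held 46 of the 48 members at higher levels than scrambled controls, and none at lower levels (limma on log2(FPKM + 1), Benjamini-Hochberg adjusted p below 0.05 over 11214 genes). Of all genes tested, 1952 were higher (17.4%) and 993 lower. After median-of-ratios scaling these were 1251 and 1454, with the same 46 members higher. Differences are given on the log2(FPKM + 1) scale, the first named group minus the second, with the SE of the fit after ±. The 46 ran from 0.50 for Incenp to 1.41 for Ccnb2, and the median over all 48 was 0.91, against 0.07 over all genes tested. In the 46 members every knockdown library lay above every scrambled control, which held for 30.3% of all genes tested. Cdc25b and Pttg1 did not pass, and their groups overlapped. Leaving out the libraries numbered 2 of both groups left 10 of the 46 past the threshold, with adjusted p between 0.0520 and 0.163 for the other 36. The median over members stayed between 0.78 and 1.05 under every alternative. With the replicate number as a block the same 46 passed, while the count of called genes over the whole table was 5081 in place of 2945. In the role classes below, higher in knockdown means against scrambled controls. Against empty controls no member passed.

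**Figure D2:**
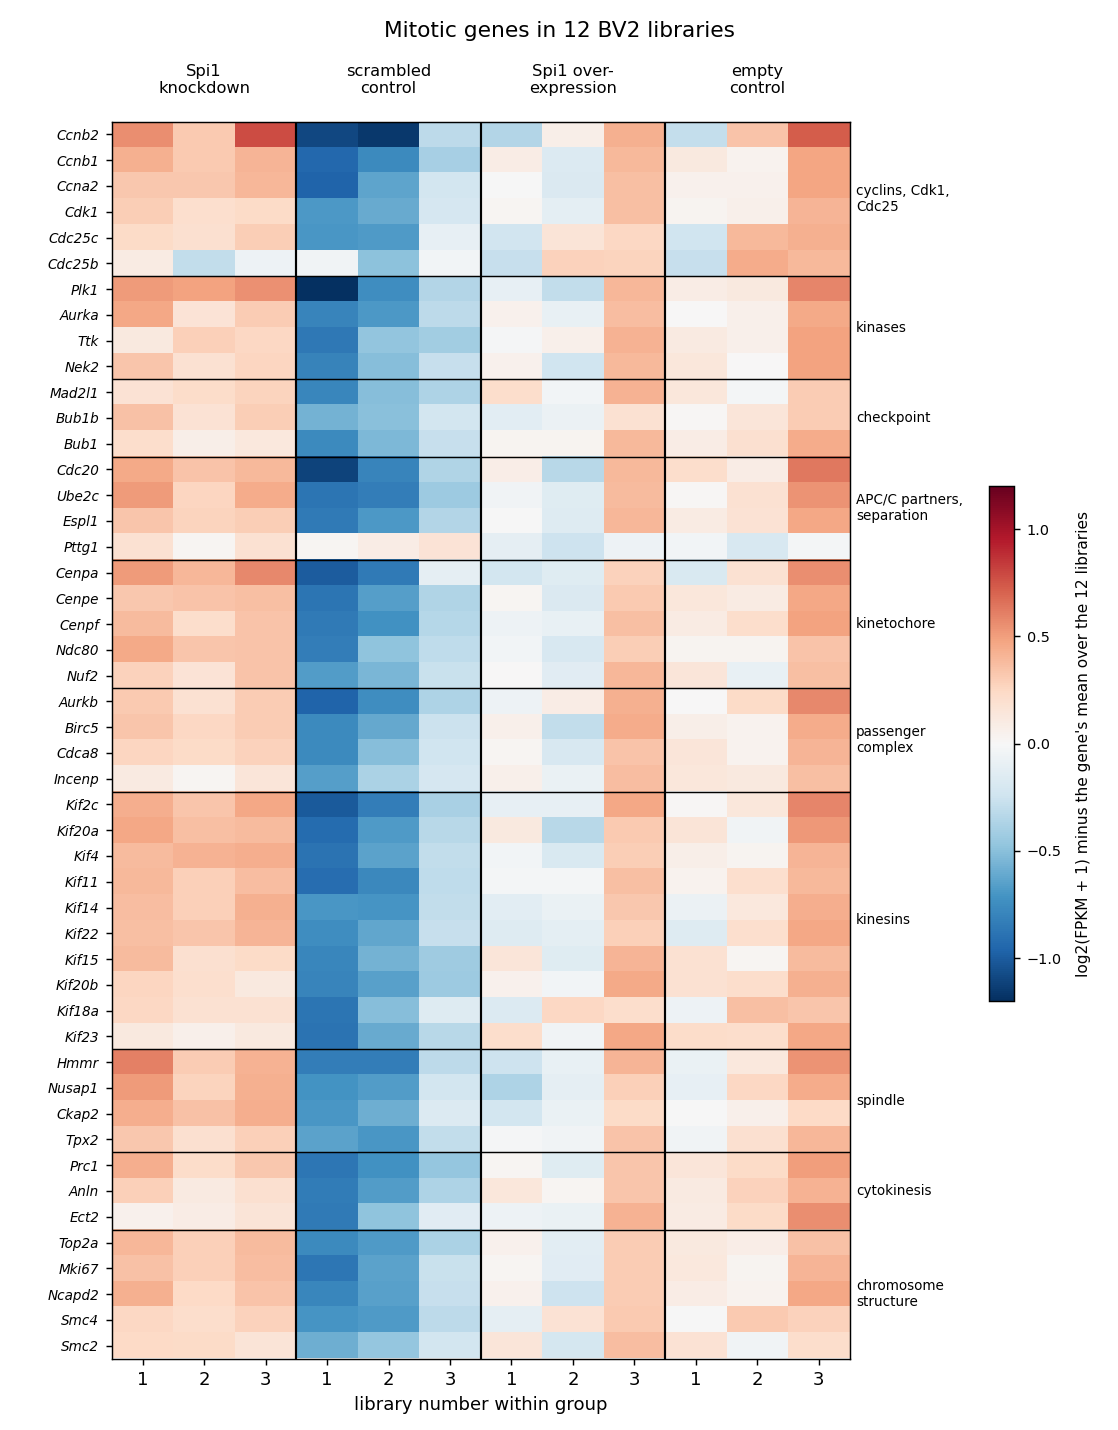
Level of each of the 48 members in each of the 12 libraries, as log2(FPKM + 1) minus the gene's mean over the 12 libraries (red above, blue below), with libraries in columns by group and genes in rows by role. The 3 scrambled control columns are the lowest group in 47 of 48 members, and Pttg1 departs from this.

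The cyclins that switch on Cdk1, and the Cdc25 phosphatases that remove its inhibitory phosphates, gave 5 of 6 members higher in knockdown, with a median log2 difference of 0.85. Ccnb2, cyclin B2, had the largest difference of all members and had 32.6, 27.4 and 38.2 FPKM in the knockdown libraries, against 9.70, 9.22 and 17.3 FPKM in the scrambled controls. It had 16.9, 23 and 29.7 FPKM in the overexpression libraries, against 17.8, 27.9 and 36.7 FPKM in the empty controls. The knockdown and scrambled groups did not overlap, and the knockdown difference was 1.41 ± 0.23, adjusted p = 0.00675. Ccnb1, cyclin B1, the main partner of Cdk1 at mitotic entry (chr13:100778650-100786570, mm10), had 59.1, 54.6 and 58.6 FPKM in the knockdown libraries, against 22.4, 25.3 and 33 FPKM in the scrambled controls. Its overexpression experiment gave 46.7, 39.1 and 57.8 FPKM in the overexpression libraries, against 47.7, 45.3 and 61 FPKM in the empty controls. Every knockdown library exceeded every scrambled control, and the difference was 1.08 ± 0.13, adjusted p = 0.00326. Cdk1, the kinase itself, had 33.1, 30.9 and 31.5 FPKM in the knockdown libraries, against 16.3, 17.3 and 23.3 FPKM in the scrambled controls. For the other experiment Cdk1 had 27.3, 24.6 and 34.9 FPKM in the overexpression libraries, against 27.4, 28.1 and 36 FPKM in the empty controls. The knockdown groups were again apart (0.74 ± 0.13, adjusted p = 0.0079), and the overexpression and empty groups overlapped. Ccna2, cyclin A2, which acts in S phase and early mitosis, and Cdc25c, the mitotic phosphatase, differed by 0.95 and 0.73, and Cdc25c missed the threshold without knockdown library 3. Cdc25b, the phosphatase that starts Cdk1 activation at centrosomes (chr2:131186949-131198497, mm10), had 57.2, 43.1 and 51 FPKM in the knockdown libraries, against 51.9, 37.7 and 52.1 FPKM in the scrambled controls. It had 43.7, 64.8 and 64.3 FPKM in the overexpression libraries, against 43.7, 72.8 and 69.96 FPKM in the empty controls. These groups overlapped in both experiments, and the knockdown difference was 0.10 ± 0.15, adjusted p = 0.647. Its sign turned, to -0.051, without scrambled control 2.

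All 4 mitotic kinases were higher in knockdown, with a median of 0.86. Plk1, Polo-like kinase 1, which drives centrosome maturation and mitotic entry (chr7:122159439-122169873, mm10), had 40.1, 39.4 and 41.2 FPKM in the knockdown libraries, against 11.2, 16.3 and 21.6 FPKM in the scrambled controls. In the overexpression experiment Plk1 had 26, 22.6 and 37 FPKM in the overexpression libraries, against 29.7, 30.3 and 42.3 FPKM in the empty controls. Scrambled control 1 was the lowest and the knockdown libraries were close to each other, with a difference of 1.29 ± 0.20, adjusted p = 0.00562. Nek2, a kinase that separates centrosomes, had the smallest difference of the 4 and had 28.8, 25.8 and 27.3 FPKM in the knockdown libraries, against 12.5, 15.5 and 18.5 FPKM in the scrambled controls. Values of Nek2 were 23.5, 19 and 29.9 FPKM in the overexpression libraries, against 24.9, 22.7 and 32 FPKM in the empty controls. Its knockdown groups did not overlap (0.79 ± 0.13, adjusted p = 0.00675). Aurka, Aurora A, which builds spindle poles, differed by 0.91, and Ttk, the checkpoint kinase MPS1, by 0.80.

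The 3 spindle checkpoint genes were higher in knockdown, with a median of 0.70. Mad2l1, MAD2, the protein that binds and restrains Cdc20, had 20.2, 20.8 and 21.6 FPKM in the knockdown libraries, against 9.90, 12.2 and 13.5 FPKM in the scrambled controls. It had 20.7, 17.3 and 24.1 FPKM in the overexpression libraries, against 19.6, 17.5 and 22.1 FPKM in the empty controls. The knockdown groups stood apart (0.77 ± 0.11, adjusted p = 0.00427). Mad2l1 was the single member whose log2(FPKM + 1) difference was above 0 in overexpression against empty controls (0.06, adjusted p = 0.9999). Bub1, the kinetochore kinase of the checkpoint, had 27, 24.4 and 25.3 FPKM in the knockdown libraries, against 13.3, 15.6 and 18.9 FPKM in the scrambled controls. Bub1 had 23.7, 23.7 and 30.7 FPKM in the overexpression libraries, against 24.7, 26.7 and 31.8 FPKM in the empty controls. Its knockdown libraries were all above its scrambled controls (0.66 ± 0.12, adjusted p = 0.00958). Bub1b, BUBR1, another inhibitor of Cdc20, differed by 0.70.

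Among the partners of the anaphase-promoting complex and the genes of sister chromatid separation, 3 of 4 were higher, with a median of 1.02. Cdc20, the activator that brings substrates to the complex, had 43.6, 40.3 and 41.8 FPKM in the knockdown libraries, against 14.1, 17.8 and 24.4 FPKM in the scrambled controls. It had 33.4, 24.9 and 41.8 FPKM in the overexpression libraries, against 36.8, 33.7 and 49.6 FPKM in the empty controls. Scrambled control 1 was again lowest, and the knockdown difference was 1.15 ± 0.17, adjusted p = 0.0052. Ube2c, the ubiquitin-conjugating enzyme of the complex, was the most abundant member per length and averaged 116 ± 10.6 FPKM in knockdown libraries and 53.1 ± 9.31 FPKM in scrambled controls (SD, n = 3 each; log2 difference 1.12), with 22.8% of its GENCODE M21 exon bases shared with Tnnc2. Espl1, separase, the protease that cuts cohesin, differed by 0.93. Pttg1, securin, the inhibitor of separase (chr11:43420250-43426251, mm10), had 20.6, 18.4 and 20.6 FPKM in the knockdown libraries, against 18.4, 19.2 and 20.3 FPKM in the scrambled controls. It had 16.7, 15 and 17.3 FPKM in the overexpression libraries, against 17.6, 15.6 and 17.7 FPKM in the empty controls. Its knockdown and scrambled libraries overlapped, with a difference of 0.04 (95% interval -0.13 to 0.21), adjusted p = 0.716, and its sign turned, to -0.039, after median-of-ratios scaling. Pttg1 was also the only member whose scrambled mean was not the lowest of the 4 groups; its overexpression mean was.

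**Figure D3:**
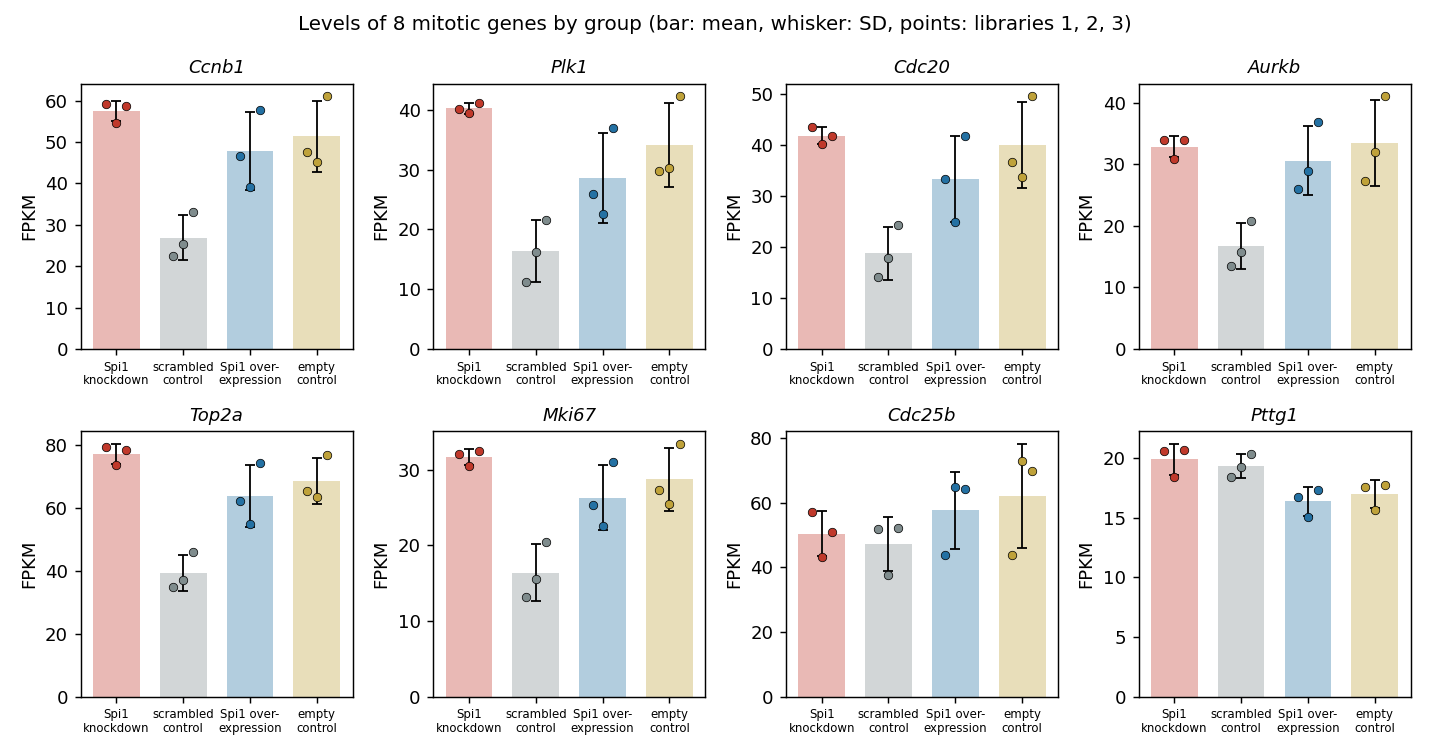
FPKM of 8 members by group, with a bar for the mean, a whisker for the SD and a point for each of the 3 libraries. In Ccnb1, Plk1, Cdc20, Aurkb, Top2a and Mki67 the scrambled controls lie below all knockdown libraries, while Cdc25b and Pttg1 overlap between those groups.

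All 5 centromere and kinetochore genes were higher in knockdown, with a median of 0.95. Cenpa, the histone H3 variant that marks centromeres, had 53.6, 49.6 and 56.2 FPKM in the knockdown libraries, against 18.2, 20.4 and 34.5 FPKM in the scrambled controls. It had 32, 33.7 and 45.6 FPKM in the overexpression libraries, against 32.9, 42.6 and 55.4 FPKM in the empty controls. Scrambled control 3 was well above the other scrambled controls and still below every knockdown library (1.15 ± 0.21, adjusted p = 0.0101). Nuf2, a subunit of the NDC80 complex that grips microtubules, had 14.4, 13.3 and 15.1 FPKM in the knockdown libraries, against 6.99, 7.72 and 9.60 FPKM in the scrambled controls. Nuf2 had 11.8, 10.6 and 15.8 FPKM in the overexpression libraries, against 13.1, 11 and 15.4 FPKM in the empty controls. The knockdown groups were apart, with the smallest difference of the class (0.75 ± 0.11, adjusted p = 0.00505). Ndc80, its partner, differed by 0.92, Cenpe, a kinetochore motor, by 0.97, and Cenpf, a large kinetochore protein of late G2 and mitosis, by 0.95.

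The chromosomal passenger complex, which corrects wrong attachments and later guides cytokinesis, had 4 of 4 members higher, with a median of 0.80. Aurkb, Aurora B, its kinase, had 33.9, 30.9 and 33.9 FPKM in the knockdown libraries, against 13.5, 15.8 and 20.8 FPKM in the scrambled controls. It had 26, 29 and 36.8 FPKM in the overexpression libraries, against 27.3, 32.1 and 41.1 FPKM in the empty controls. No knockdown library overlapped a scrambled one (0.96 ± 0.14, adjusted p = 0.0052). Incenp, its scaffold, had the smallest difference among the 46 and had 45.6, 43 and 47 FPKM in the knockdown libraries, against 26.5, 32.4 and 36.7 FPKM in the scrambled controls. It had 44.4, 40.1 and 55.1 FPKM in the overexpression libraries, against 46.8, 46.1 and 54.6 FPKM in the empty controls. The difference was 0.50 ± 0.11, adjusted p = 0.0195, and it missed the threshold when knockdown library 1 or 3 was left out. Birc5, survivin, and Cdca8, borealin, the targeting subunits, differed by 0.84 and 0.76.

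All 10 kinesins, the microtubule motors, were higher in knockdown, with a median of 0.93. Kif2c, MCAK, which takes microtubules apart at centromeres, had 19.5, 18 and 19.9 FPKM in the knockdown libraries, against 6.54, 7.53 and 10.5 FPKM in the scrambled controls. It had 13.1, 13.1 and 19.8 FPKM in the overexpression libraries, against 14.3, 15.7 and 21.7 FPKM in the empty controls. The knockdown libraries were alike and the scrambled controls uniformly lower (1.15 ± 0.15, adjusted p = 0.00375). Kif23, MKLP1, a motor of the central spindle, had the smallest difference and had 15.7, 15 and 15.7 FPKM in the knockdown libraries, against 7.34, 9.13 and 11.2 FPKM in the scrambled controls. It had 16.8, 13.9 and 20.2 FPKM in the overexpression libraries, against 17, 16.9 and 20.3 FPKM in the empty controls. Its groups in the knockdown experiment were apart (0.71 ± 0.13, adjusted p = 0.0097). Kif11, which pushes spindle poles apart, and Kif4, which shapes chromosomes and the midzone, each differed by 1.01. Kif20a, a motor of cytokinesis that shares 29.3% of its GENCODE M21 exon bases with Cdc23, differed by 1.05. Kif14 and Kif20b, both motors of cytokinesis, differed by 0.93 and 0.82. Kif15, a spindle motor, and Kif22, which moves chromosome arms, differed by 0.86 and 0.92. Kif18a, which limits the length of kinetochore microtubules, differed by 0.72 and missed the threshold when knockdown library 1, 2 or 3 was left out.

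The 4 spindle-associated proteins were higher in knockdown, with a median of 0.91. Hmmr, a spindle assembly protein also known as a hyaluronan receptor, had 33.3, 26.9 and 29 FPKM in the knockdown libraries, against 11.7, 11.7 and 17.1 FPKM in the scrambled controls. It had 18, 20.2 and 28.8 FPKM in the overexpression libraries, against 20.3, 23.6 and 31.7 FPKM in the empty controls. The gap between knockdown and scrambled libraries was wide (1.10 ± 0.15, adjusted p = 0.00432). Tpx2, the activator of Aurora A, had 41.9, 37.9 and 40.6 FPKM in the knockdown libraries, against 21, 20.01 and 26.8 FPKM in the scrambled controls. Tpx2 had 32.8, 32.3 and 42.3 FPKM in the overexpression libraries, against 32.3, 38 and 44.1 FPKM in the empty controls. Its knockdown libraries lay above all scrambled controls (0.81 ± 0.11, adjusted p = 0.00417). Nusap1, which bundles microtubules at chromosomes, and Ckap2, a microtubule protein of spindle poles, differed by 0.94 and 0.89.

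Genes of the midzone and cytokinesis were higher in 3 of 3 cases, with a median of 0.82. Prc1, the bundler of midzone microtubules, which shares 11.1% of its GENCODE M21 exon bases with Rccd1, had 26.5, 22.7 and 24.5 FPKM in the knockdown libraries, against 10.2, 11.3 and 13.7 FPKM in the scrambled controls. It had 19.7, 17.4 and 24.6 FPKM in the overexpression libraries, against 21.5, 22.9 and 27.7 FPKM in the empty controls. The knockdown difference was 1.01 ± 0.11, adjusted p = 0.00261, with no overlap. Ect2, the exchange factor that activates RhoA at the cleavage furrow, had 14.4, 14.8 and 15.5 FPKM in the knockdown libraries, against 7.28, 9.63 and 12.6 FPKM in the scrambled controls. It had 13.3, 13.1 and 18.8 FPKM in the overexpression libraries, against 14.9, 16.4 and 20.9 FPKM in the empty controls. Its difference (0.59 ± 0.16, adjusted p = 0.0357) missed the threshold when any 1 library other than scrambled control 3 was left out. Anln, anillin, a scaffold of the contractile ring, differed by 0.82.

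Chromosome structure genes were higher in 5 of 5 cases, with a median of 0.91. Top2a, topoisomerase II alpha, which untangles sister chromatids (chr11:98992943-99024189, mm10), had 79.3, 73.4 and 78.4 FPKM in the knockdown libraries, against 34.8, 37.1 and 45.8 FPKM in the scrambled controls. It had 62.1, 54.7 and 74.3 FPKM in the overexpression libraries, against 65.3, 63.4 and 76.8 FPKM in the empty controls. The difference had the smallest adjusted p of all members (0.96 ± 0.10, adjusted p = 0.00254). Mki67, Ki-67, the coat of mitotic chromosomes and a common stain for dividing cells (chr7:135689784-135716361, mm10), had 32.1, 30.5 and 32.5 FPKM in the knockdown libraries, against 13.1, 15.6 and 20.5 FPKM in the scrambled controls. It had 25.3, 22.6 and 31 FPKM in the overexpression libraries, against 27.3, 25.5 and 33.4 FPKM in the empty controls. Knockdown libraries were close together and scrambled controls lower (0.93 ± 0.14, adjusted p = 0.00562). Smc2, a core subunit of condensin, had 15.8, 15.7 and 14.8 FPKM in the knockdown libraries, against 8.46, 9.29 and 11.2 FPKM in the scrambled controls. It had 14.7, 11.3 and 17.4 FPKM in the overexpression libraries, against 15.1, 12.9 and 15.4 FPKM in the empty controls. The groups of the knockdown experiment did not overlap (0.63 ± 0.098, adjusted p = 0.00594). Smc4, its partner, and Ncapd2, a subunit of condensin I, differed by 0.81 and 0.91.

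In GENCODE M21, 16 of the 48 members overlap the exons of another gene, 6 of them over more than 10% of their exon bases, and the library kit does not mark strand, so reads on bases counted for both genes of a pair cannot be told apart. The 6 are Ccna2, Cdc25c, Kif4, Kif20a, Prc1 and Ube2c. In these 6 the lengths behind the deposited FPKM were shorter than the exon unions. They were 3025 against 8225 bases for Prc1, 931 against 2600 for Ube2c and 1941 against 4919 for Cdc25c. There, and in Ccna2 (2811 against 4083), the shared bases may not have been counted. For Kif20a the length was 3905 against 4338 bases with 1271 shared, and for Kif4 4712 against 5514 with 832 shared. In Kif20a and Kif4 fewer bases were left out than are shared, so shared bases may have been counted. Members with no overlap also had shorter lengths, such as Mad2l1 (1725 against 8390) and Cenpa (1337 against 5860), except Ccnb2, Birc5 and Mki67. A shorter length alone therefore does not show that shared bases were left out.

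Set against empty controls, which belong to the overexpression experiment, knockdown libraries showed no member past the threshold in either direction (limma over all 12 libraries), with 1 member, Pttg1, at an unadjusted p below 0.05. Of all genes tested, 3.28% were called in this comparison. Differences ran from -0.27 to 0.31, with a median of 0.11 over members, 0.05 to 0.23 over the alternatives, and 0.03 over all genes. Ccnb1 differed by 0.17 (95% interval -0.20 to 0.54). Plk1 differed by 0.25 (95% interval -0.25 to 0.75), and Top2a by 0.17 (95% interval -0.11 to 0.46). For Mki67 the difference was 0.15 (95% interval -0.20 to 0.50), and for Aurkb -0.01 (95% interval -0.40 to 0.39). Over the 48 members the intervals reached from -0.76 to 0.94. No alternative, limma-voom on the recovered reads included, called any member in this comparison. The knockdown and empty groups belong to different experiments, so experiment and treatment cannot be told apart.

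Scrambled controls held 38 of the 48 members at lower levels than empty controls, and none at higher levels, where 390 of all genes tested were lower (3.47%) and 71 higher. After median-of-ratios scaling these were 360 and 150, with 40 members lower. The median difference was -0.78 over members and -0.04 over all genes. In 44 members every scrambled control lay below every empty control, against 15.8% of all genes tested. The 10 members that did not pass were Ccnb2, Cdc25b, Cdc25c, Kif18a, Cenpa, Birc5, Nusap1, Ckap2, Smc2 and Pttg1. Prc1 had the smallest adjusted p, with a difference of -0.98 ± 0.14, adjusted p = 0.00858. Ccnb1 differed by -0.91 ± 0.17, adjusted p = 0.0198, Plk1 by -1.04 ± 0.23, adjusted p = 0.0321 and Mki67 by -0.78 ± 0.16, adjusted p = 0.0251. Pttg1 differed by 0.18 ± 0.081, adjusted p = 0.275, with all scrambled controls above all empty controls. The number past the threshold depended on single libraries. It was 3 without scrambled control 1, 2 without scrambled control 2, 3 without empty control 3 and 25 without empty control 2. It was 23 with no filter on low values and 11 without the libraries numbered 2. The median over members stayed between -0.91 and -0.66 under every alternative. Neither control carried a Spi1 perturbation, and the difference of vector cannot be told apart from that of experiment. Spi1 itself was not equal in them, at 165 ± 5.41 FPKM in scrambled and 135 ± 20.8 FPKM in empty controls (SD, n = 3 each), without overlap. Its part in the differences was not tested.

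Overexpression libraries held 21 of the 48 members at higher levels than scrambled controls and none at lower levels, where 345 of all genes tested were higher (3.07%) and 93 lower. After median-of-ratios scaling these were 351 and 193, with 28 members higher and Pttg1 lower. The median difference was 0.67 over members and 0.03 over all genes. Ccnb1 differed by 0.81 ± 0.17, adjusted p = 0.0289, Top2a by 0.68 ± 0.13, adjusted p = 0.0212 and Mki67 by 0.66 ± 0.16, adjusted p = 0.0464. Pttg1 differed by -0.23 ± 0.081, adjusted p = 0.148, with every overexpression library below every scrambled control. No member passed without scrambled control 1, without scrambled control 2 or without overexpression library 3. Without overexpression library 1 there were 9, without scrambled control 3 there were 32, and without overexpression library 2 there were 33. The count was 12 with no filter on low values and 9 without the libraries numbered 2. These groups too come from different experiments, and the comparison shares its scrambled controls with those of knockdown and of empty controls above.

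The main fit, which did not use pairs, called none of the 48 members in overexpression against its own empty controls. None was at an unadjusted p below 0.05 in that fit. Of all genes tested, 0% were called by limma or by limma-voom on the recovered reads, and 122 were at an unadjusted p below 0.05. The median difference was -0.13 over members, with a range of -0.26 to -0.02 over the alternatives, and -0.01 over all genes. Between libraries of the same number, 34 of 48 members were lower in overexpression in all 3 pairs and 0 were higher in all 3, where 23.8% of all genes tested were lower in all 3 pairs. The medians over members were -0.07, -0.23 and -0.10 in pairs 1, 2 and 3. Plk1 differed by -0.26 (95% interval -0.78 to 0.26), and Cdc20 by -0.27 (95% interval -0.80 to 0.27). For Ccnb1 the difference was -0.10 (95% interval -0.53 to 0.32), and for Mki67 -0.13 (95% interval -0.49 to 0.24). Over the members the intervals reached from -0.93 to 0.51. All these intervals come from the fit without pairs. Same-numbered libraries of these groups deviated together (correlations of 0.8, 0.848 and 0.514), and that shared part stays in the spread behind the intervals. Unadjusted p-values of members in the blocked fit were not counted. The fit blocked on replicate number called 13 genes of the whole table, and none was a member.

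**Figure D4:**
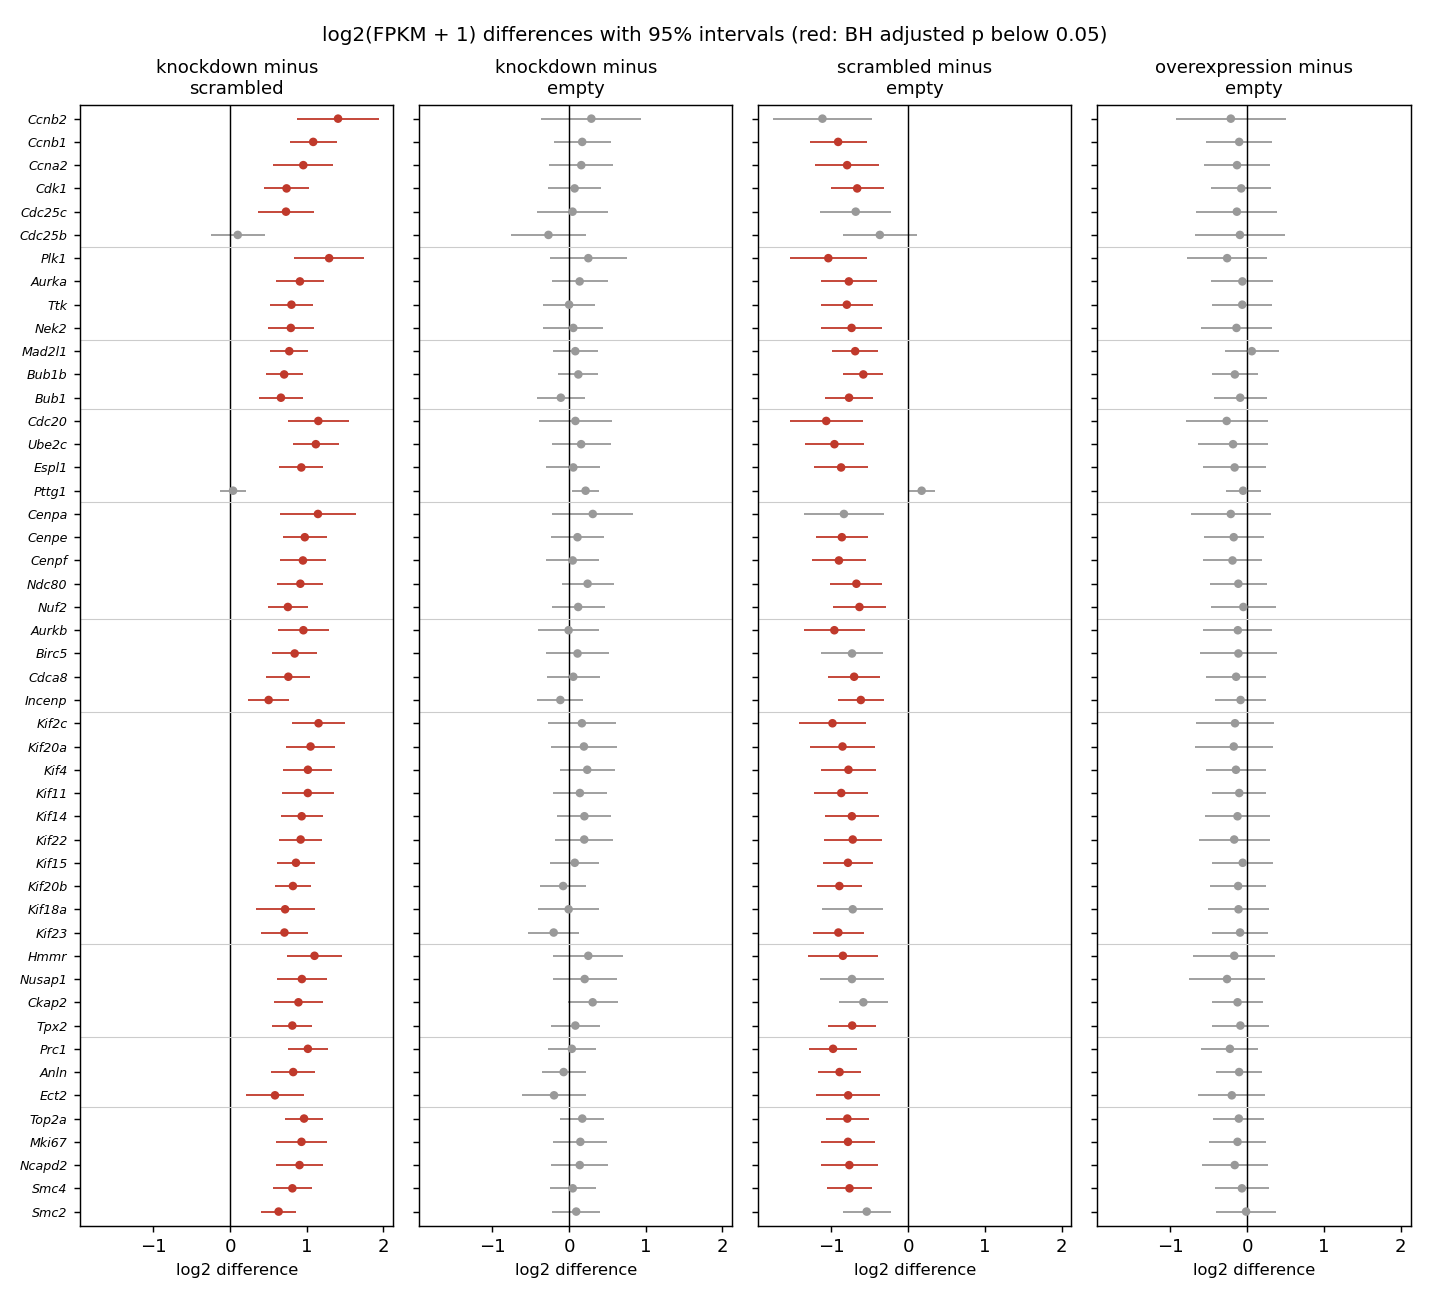
log2(FPKM + 1) differences of the 48 members with 95% intervals in 4 comparisons, with genes in rows by role and red for adjusted p below 0.05. Knockdown minus scrambled is above 0 in 46 called members, scrambled minus empty is below 0 in 38, and the comparisons of knockdown and of overexpression with empty controls hold no called member.

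The effect of overexpression minus that of knockdown, each against its own control, was negative and past the threshold in 33 of 48 members, where 330 of all genes tested passed in that direction (2.94%) and 213 in the other. After median-of-ratios scaling these were 252 and 339, with 34 members negative. The median was -1.02 over members and -0.09 over all genes. Plk1 gave -1.55 ± 0.32, adjusted p = 0.0249, Ccnb1 -1.19 ± 0.24, adjusted p = 0.0231 and Top2a -1.07 ± 0.18, adjusted p = 0.0135. Pttg1 gave -0.09 ± 0.11, adjusted p = 0.71. The count was 2 without knockdown library 1, without knockdown library 3, without scrambled control 2 or without empty control 3. It was 4 without scrambled control 1 or overexpression library 1, 7 without knockdown library 2, 17 without overexpression library 2 and 19 with no filter on low values. None passed without the libraries numbered 2. The count was 46 with the replicate number as a block within each experiment, where 4658 genes of the whole table passed in either direction in place of 543. It was 42 without overexpression library 3, and 40 without scrambled control 3 or with limma-voom on the recovered reads. The median over members stayed between -1.16 and -0.90 under every alternative.

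Across the 4 groups the order of the means was the same in most members. Knockdown was highest, followed by empty controls, overexpression and scrambled controls, in 35 of 48 members, and the scrambled mean was the lowest in 47. Neighbours in this order other than the scrambled controls had no member past the threshold where they were compared (knockdown with empty, and overexpression with empty). Summed over the members, reads per megaread were 4710 ± 204 in knockdown, 2557 ± 475 in scrambled, 4083 ± 698 in overexpression and 4464 ± 636 in empty libraries (SD, n = 3 each). By library this sum was 4872, 4481 and 4776 in knockdown, against 2185, 2394 and 3092 in scrambled controls. It was 3768, 3598 and 4883 in overexpression, against 3977, 4232 and 5184 in empty controls. The knockdown libraries were the most alike, with a median coefficient of variation over members of 4.66%, against 20.1% in scrambled controls. It was 19.5% in overexpression and 16.3% in empty libraries. Library 3 was the highest of its group in 48 members among scrambled controls, 46 in overexpression, 45 in empty controls and 18 in knockdown. Scrambled control 1 was the lowest of all 12 libraries in 43 members and scrambled control 2 in 4. The shares of all genes with these ranks were not counted. The median log2 deviation from the empty mean over all genes tested was also highest in library 3 of each group. In scrambled controls 1, 2 and 3 it was -0.067, -0.038 and -0.018 over all genes, and -1.02, -0.86 and -0.49 over members. Between libraries of the same number the median difference of knockdown from scrambled was 1.15, 0.89 and 0.64 for numbers 1, 2 and 3.

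The members were split by the letters of their promoters as a description without a test. Of the 33 members with a CHR in a window, all 33 were higher in knockdown against scrambled controls, with a median of 0.93. Of the 8 members with a window and no CHR (Bub1, Cdc25b, Kif18a, Mad2l1, Nek2, Nuf2, Nusap1 and Pttg1), 6 were higher, with a median of 0.74 over the 8. For Mad2l1 and Pttg1 among these 8 the window did not span the gene start in GENCODE M21. Nor did the windows of Kif2c, Kif4, Kif14 and Cdca8, which hold a CHR. With a CCAAT box 29 of 30 were higher, and without one 10 of 11. Of all genes tested, 17.4% were higher in this comparison. The contrast of calls by CHR rests on the 2 members that did not pass, Cdc25b and Pttg1. The share higher among all tested genes with a CHR was not counted.

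Other cell cycle genes were read from lists that share no member with the 48, and their counts stand beside the shares over all genes, 17.4% higher in knockdown against scrambled controls and 3.47% lower in scrambled against empty controls. Among transcription factors and the MuvB core, 8 of 16 tested genes were higher in knockdown against scrambled controls, with a median of 0.28, and 3 were lower in scrambled against empty controls. Foxm1, the forkhead activator of mitotic genes, averaged 17.6 ± 0.51 FPKM in knockdown libraries and 10.7 ± 2.10 FPKM in scrambled controls (SD, n = 3 each), a log2 difference of 0.69 ± 0.12, adjusted p = 0.00893. Rbl1, the pocket protein p107 of DREAM, differed by 0.47 ± 0.079, adjusted p = 0.00739. E2f4, the E2F of DREAM, differed by 0.34 ± 0.064, adjusted p = 0.0108. Rbbp4 and Nfya, a MuvB subunit and an NF-Y subunit, did not pass, with differences of 0.22 and -0.03. In the core of the anaphase-promoting complex and its regulators, 8 of 16 were higher, with a median of 0.28, and 3 were lower in scrambled against empty controls. The inhibitor Fbxo5 differed by 0.62 ± 0.071, adjusted p = 0.00289, and the subunit Cdc27 by 0.44 ± 0.060, adjusted p = 0.0041. Subunit Cdc23, whose exons overlap Kif20a, differed by 0.61, while Anapc5 and Anapc2 did not pass (0.30 and 0.03).

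Other kinetochore genes were higher in 28 of 34 cases, with a median of 0.53, and 14 were lower in scrambled against empty controls. Zwilch, of the complex that brings dynein to kinetochores, differed by 0.84 ± 0.073, adjusted p = 0.00148, its partner Kntc1 by 0.81, and Ska2, a microtubule coupler, by 0.69. Zw10, the other subunit of that complex, and its anchor Zwint did not pass, with differences of -0.17 and 0.08. Cohesin and its regulators were higher in 10 of 15 cases, with a median of 0.34, and 3 were lower in scrambled against empty controls. Sgol1, shugoshin, the protector of centromeric cohesin, differed by 0.71 ± 0.10, adjusted p = 0.00477, the acetyltransferase Esco2 by 0.57 and the cohesin subunit Rad21 by 0.54. Stag2 and Wapal, a subunit and a release factor, did not pass (0.04 and -0.03). Of the other condensin subunits 4 of 5 were higher, with a median of 0.56, namely Ncapd3 (0.56), Ncaph (0.75), Ncapg (0.70) and Ncapg2 (0.42, named after its value was seen), while Ncaph2 did not pass (0.19). Of these 5, 3 were lower in scrambled against empty controls.

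Other spindle, centrosome and cytokinesis genes were higher in 35 of 45 cases, with a median of 0.69, and 19 were lower in scrambled against empty controls. Cks2, a small subunit of Cdk complexes, differed by 1.0 ± 0.080, adjusted p = 0.00121. Cit, citron kinase of the midbody, differed by 0.80, and Trip13, the ATPase that resets MAD2, by 0.68. Ensa, which shields mitotic phosphorylation from phosphatase, and Haus8, an augmin subunit, did not pass (-0.23 and -0.21). Genes of G1/S and DNA replication were higher in 28 of 39 cases, with a median of 0.50, and 6 were lower in scrambled against empty controls. Chek1, the replication checkpoint kinase, differed by 0.56 ± 0.073, adjusted p = 0.00383. Pole, a replicative polymerase, differed by 0.68, and Mcm7, a helicase subunit, by 0.74. Pcna, the sliding clamp, and Cdt1, the licensing factor destroyed in S phase, did not pass, with differences of 0.19 and -0.01. In none of the 7 lists was a gene lower in knockdown against scrambled controls. None of their genes passed in overexpression against empty controls, and against empty controls knockdown called 1, Cdt1, which was lower (-0.35 ± 0.069, adjusted p = 0.0238).

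**Figure D5:**
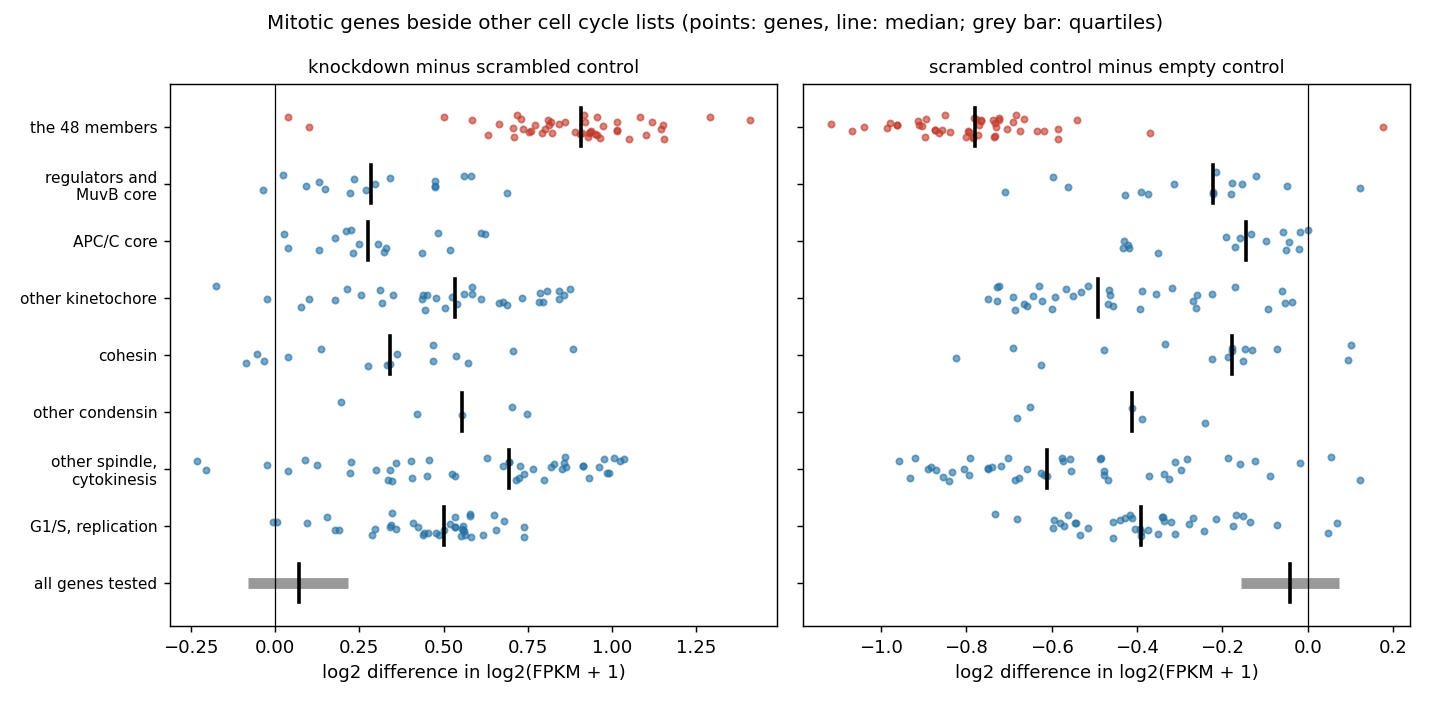
log2 differences of the 48 members (red) and of 7 other cell cycle lists (blue), each point a gene and each black line a median, with the quartiles of all genes tested as a grey bar. On the left, knockdown minus scrambled, the members' median is 0.91 and those of the lists are 0.28 to 0.69. On the right, scrambled minus empty, the members' median is -0.78 and those of the lists are -0.61 to -0.15.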

How the data were processed

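RNA-seq libraries of 12 samples were grouped by treatment label and numbered from their titles. Per the labels' protocols, the polyA libraries used a kit that does not mark strand and single reads of 100 bases. Named in the submitters' processing notes, with no role or order, are the build mm10, STAR 2.5.2a, DESeq2 1.14, featureCounts, bcl2fastq and CASAVA 1.8.2. The authors deposited FPKM (reads per kilobase of gene per megaread of the library) in 2 tables of 24062 entries, of which 4 with a repeated symbol were left out. The unit was read from the values: whole reads were recovered for 17840 of 17842 genes above 0 (99.99%, within 0.01 read), which gave the depths.

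Values were tested as log2(FPKM + 1) with limma 3.58.1 in R 4.3.3, over genes averaging 1 FPKM or more, with Benjamini-Hochberg adjustment over all of them and a threshold of 0.05. Differences are on this scale, which understates those of low genes, and are given ± SE. Each perturbation against its own control used the 6 libraries of that experiment, and the other 4 comparisons used all 12 with 4 group means. The fits were tested on simulated data. Alternatives were a pseudocount of 0.1, no filter, median-of-ratios scaling, trend and robust options, limma-voom on recovered reads, the replicate block, all 12 libraries in 1 fit, and leaving out each library or all those numbered 2.

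Same-numbered libraries deviated together within each experiment, with correlations across genes of 0.397, 0.535 and 0.343 between knockdown and scrambled libraries and 0.8, 0.848 and 0.514 between overexpression and empty libraries. Numbers were taken as pairs there in the counts between same-numbered libraries and in the replicate block, while the main fits did not use the pairs. Across experiments numbers were not taken as pairs (correlations of -0.406 to 0.133).

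Every library's value is printed for the largest and smallest knockdown difference in each role class and for Ccnb1, Cdk1, Plk1, Aurkb, Top2a and Mki67. From each other list up to 3 called genes with the smallest p and 2 others with the highest mean were named. Members and lists were chosen with earlier results of these data known. Promoter windows came from RefSeq (GRCm38.p6) and exons from GENCODE M21.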

Additional observations from a re-analysis of the deposited data

Results flagged for a closer look

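The effects of overexpression and of knockdown, each against its own control, differed in a test of the difference itself over all 12 libraries, and 33 of the 48 members passed it in the negative direction, as did 2.94% of all genes tested. The 33 became 2 to 42 with 1 library left out and 0 without the libraries numbered 2. On the log2(FPKM + 1) scale the difference, overexpression effect minus knockdown effect, was -1.55 for Plk1, -1.42 for Cdc20 and -1.36 for Cenpa. It was -1.31 for Kif2c, -1.27 for Hmmr, -1.24 for Prc1 and -1.19 for Ccnb1. For Aurkb, Top2a and Mki67 it was -1.08, -1.07 and -1.06, and for Tpx2 it was -0.90. In each of these 11 genes the mean was higher in knockdown than in scrambled controls and lower in overexpression than in empty controls, and the second of these was not past the threshold in any of them. The difference compares 2 experiments whose controls themselves differed in 38 members.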

How the results depend on the processing

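In knockdown against scrambled controls, 42 to 46 members passed with 1 library left out, 44 with no filter, 45 with all 12 libraries in 1 fit, 46 with the replicate block and 10 without the libraries numbered 2. Over the whole table that comparison called 2945 genes, 5081 with the block, 1605 with all 12 libraries in 1 fit, 449 without the libraries numbered 2 and 1458 to 2206 with 1 library left out. Overexpression against empty controls called 0 genes, 13 with the block (no member) and 0 with any 1 library left out, with 0 members throughout. Knockdown against empty controls called 368 genes, 82 without the libraries numbered 2 and 106 to 239 with 1 left out, with 0 members throughout. Scrambled against empty controls called 461 genes, 716 with the block and 49 to 374 with 1 left out. Its 38 members became 46 with the block, 23 with no filter, 11 without the libraries numbered 2 and 2 to 45 with 1 left out. Overexpression against scrambled controls called 438 genes, 698 with the block, 673 without the libraries numbered 2 and 55 to 522 with 1 left out. Its 21 members became 44 with the block, 12 with no filter, 9 without the libraries numbered 2 and 0 to 33 with 1 left out. The difference of effects called 543 genes, 4658 with the block, 80 without the libraries numbered 2 and 109 to 575 with 1 left out. Its 33 members became 46 with the block, 19 with no filter, 0 without the libraries numbered 2 and 2 to 42 with 1 left out. In the 3 comparisons between groups of different experiments the block pairs libraries that share only a number; in knockdown against scrambled and overexpression against empty controls it changed no call among members. Signs turned for Pttg1 (-0.039 under median-of-ratios scaling) and Cdc25b (-0.051 without scrambled control 2, and -0.051 to 0.206 over the single libraries left out) in knockdown against scrambled controls, neither past the threshold. Counting each member under each alternative in the 4 comparisons with called members, 2100 results kept direction and side of the threshold, 606 lost the call, 124 gained it and 2 turned. The medians over members moved by less than 0.22 in all 86 refits. This limit is the median over the 4 groups of the SD of the library medians over members. It is not the spread of the groups in each comparison, and knockdown libraries were more alike than it. The cause of the changed counts was not tested, beyond the fewer libraries or more genes that some alternatives use by construction. With 3 libraries a group, the median 95% interval of a member reached 0.30 to either side of its knockdown difference.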
